A study of Mus musculus with 6 samples.

Results

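The 9 retinoid metabolism genes Stra6, Crabp1, Crabp2, Rdh10, Rdh11, Retsat, Aldh1a1, Aldh1a2 and Rarb were examined in mouse embryonic fibroblasts. They were chosen by name, as genes that the platform annotation pairs with probe sets of their own, and Rdh11 and Retsat were picked because their levels differed between groups in these data. The 9 genes were 9 of 18194 measured genes and had 12 of the 34958 probe sets that the annotation pairs with 1 gene. No probe set was shared with another gene. Rdh10, Rdh11 and Retsat had more than 1 probe set, and the brightest stands for the gene below. Rdh11 was lower in both arrays with wild-type KDM5A than in all others, and Retsat was higher in both arrays with KDM5A-H483A than in all others. The second probe set of each overlapped between groups, and their differences are given without a test. None of the other 7 genes passed the test in any comparison, and 0 of all 18194 genes were called. Each probe set has its own response, so levels are compared between groups within a probe set and never between genes.

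All cells were immortalized KDM5A-/- fibroblasts of mixed background strain, grown with fetal bovine serum and harvested before confluence. KDM5A removes methyl groups from histone H3 at lysine 4. The cells carried KDM5A-H483A, whose catalytic histidine is an alanine, or wild-type KDM5A, or an empty vector. Each group had 2 arrays, Affymetrix mouse M430 2.0, called biological replicates in the labels. The labels name no vector, promoter or clone and do not say how the replicate cultures were separated, so a p-value measures the spread between these samples only.

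Retinoids are vitamin A and its derivatives. Cells take up retinol, oxidize it to retinal and then to retinoic acid, or reduce retinal back to retinol for storage. Retinoic acid activates nuclear receptors that bind DNA as RAR and RXR pairs, and in embryonic mesenchyme it patterns limbs and the body axis. Fibroblasts of the embryo can both make and respond to it.

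Values are log2 RMA values, so 1 unit is a doubling of signal. Kdm5a itself (brightest of 6 probe sets) stood at 6.11 and 5.89 with KDM5A-H483A, at 5.96 and 5.83 with wild-type KDM5A, and at 5.89 and 5.83 with empty vector. The wild-type KDM5A arrays overlapped the empty vector arrays, and the KDM5A-H483A arrays were above these, the second of them narrowly. This probe set therefore does not show that wild-type KDM5A was expressed. The labels do not say whether its probes lie in the deleted part or in the reintroduced sequence. Of 10 fibroblast markers, 9 had means at or above the median of all genes, against 0 of 5 epithelial, 1 of 5 endothelial, 1 of 5 macrophage, 1 of 5 adipocyte, 2 of 5 muscle and 2 of 5 neural markers. The deposited table has no detection calls. As a guide to weak signal, 15 genes restricted to other tissues had means between 2.68 and 5.75 (median 4.43). The means of Stra6, Retsat, Aldh1a1 and Aldh1a2 lay within that range, so these 4 genes may not lie above background, and those of the other 5 genes lay above it. Limma called 0 of 18194 genes at an adjusted p under 0.05 in each of the 3 comparisons (0% of genes), with 1.65% of genes at an unadjusted p under 0.05 for KDM5A-H483A against empty vector, 2.52% for wild-type KDM5A against empty vector and 3.81% for KDM5A-H483A against wild-type KDM5A. The first 2 of these comparisons share the empty vector arrays.

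**Figure D1:**
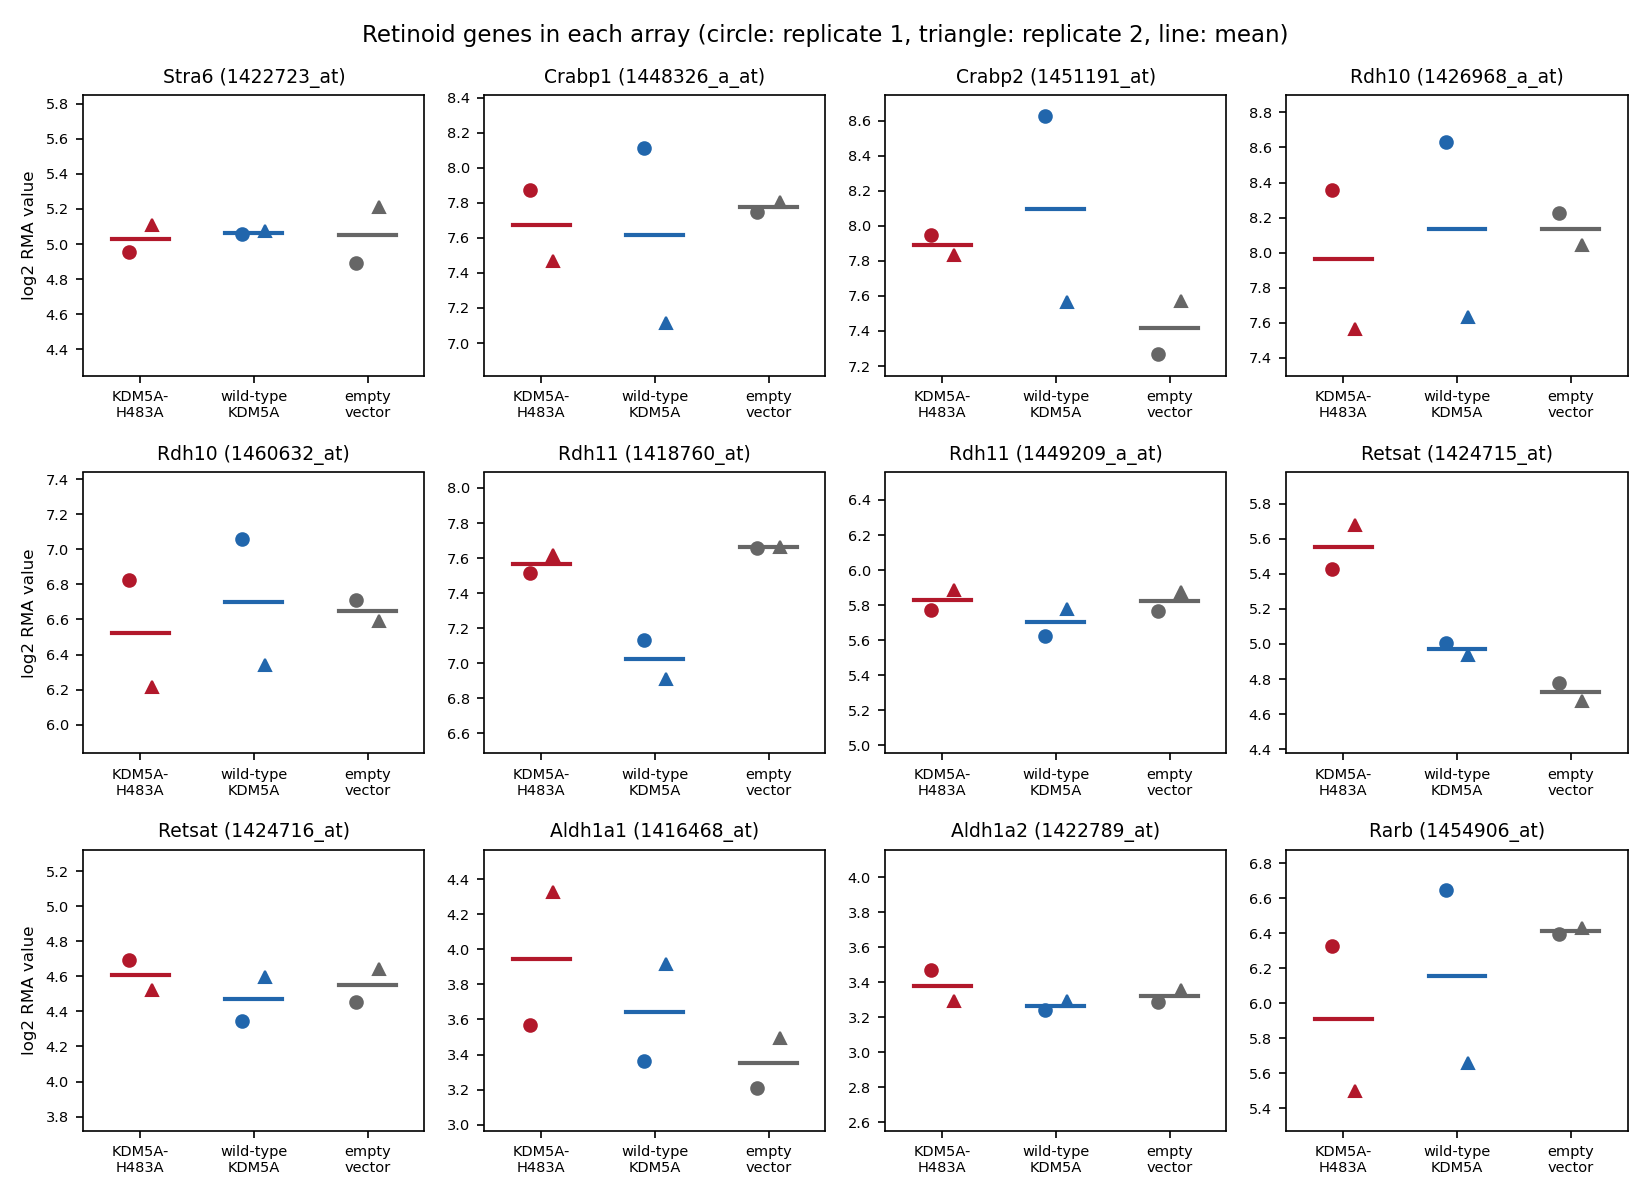
Log2 RMA value (vertical axis, spanning 1.6 units in each panel) of the 12 probe sets in the arrays with KDM5A-H483A, wild-type KDM5A and empty vector. Circles are replicate 1, triangles replicate 2 and lines group means. Rdh11 (1418760_at) is lowest in both wild-type KDM5A arrays, Retsat (1424715_at) is highest in both KDM5A-H483A arrays, and Rdh10, Rarb and Crabp1 differ mainly between the replicates of the KDM5A groups.

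Of the genes for uptake and binding of retinoids, none passed the test. Stra6 (1422723_at), the cell-surface receptor that takes retinol from its carrier in blood, stood at 4.95 and 5.11 with KDM5A-H483A, at 5.06 and 5.07 with wild-type KDM5A, and at 4.89 and 5.21 with empty vector. All 4 arrays with KDM5A lay between the empty vector arrays. Relative to empty vector, the log2 fold change was -0.02 for KDM5A-H483A (95% CI -0.38 to 0.34, limma adjusted p = 0.999) and 0.02 for wild-type KDM5A (95% CI -0.35 to 0.38, limma adjusted p = 1).

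Crabp2 (1451191_at), which carries retinoic acid from the cytoplasm to its nuclear receptor, stood at 7.95 and 7.83 with KDM5A-H483A, at 8.62 and 7.56 with wild-type KDM5A, and at 7.27 and 7.57 with empty vector. Both KDM5A-H483A arrays were above both empty vector arrays, while the second wild-type KDM5A array was level with the higher empty vector array. The group means were 7.89 ± 0.08, 8.09 ± 0.75 and 7.42 ± 0.21 (SD, n = 2 each) in the same order of groups. Relative to empty vector, the log2 fold change was 0.47 for KDM5A-H483A (SE 0.33, 95% CI -0.32 to 1.27, limma adjusted p = 0.999) and 0.67 for wild-type KDM5A (SE 0.33, 95% CI -0.12 to 1.47, limma adjusted p = 1). Leaving out the first wild-type KDM5A array lowered the second of these values to 0.14, and leaving out the second raised it to 1.21.

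Crabp1 (1448326_a_at), a cytoplasmic protein that binds retinoic acid and is linked to its turnover, stood at 7.87 and 7.47 with KDM5A-H483A, at 8.11 and 7.12 with wild-type KDM5A, and at 7.75 and 7.80 with empty vector. In each KDM5A group 1 array lay above and 1 below the empty vector arrays. Its log2 fold change against empty vector was -0.10 for KDM5A-H483A (95% CI -0.88 to 0.67, limma adjusted p = 0.999) and -0.16 for wild-type KDM5A (95% CI -0.93 to 0.61, limma adjusted p = 1).

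Among the genes that oxidize, reduce or saturate retinol, Rdh11 was lowest with wild-type KDM5A and Retsat highest with KDM5A-H483A, while Rdh10 differed mainly between replicates. Rdh10 (1426968_a_at), the dehydrogenase that supplies retinal in the mouse embryo, stood at 8.36 and 7.57 with KDM5A-H483A, at 8.63 and 7.63 with wild-type KDM5A, and at 8.23 and 8.04 with empty vector. The wild-type KDM5A and empty vector means were both 8.13, and the log2 fold change of KDM5A-H483A against empty vector was -0.17 (95% CI -1.08 to 0.74, limma adjusted p = 0.999). Its other probe set (1460632_at) had the same order of arrays within each group, at 6.83 and 6.22 with KDM5A-H483A, 7.06 and 6.34 with wild-type KDM5A, against 6.71 and 6.59 with empty vector.

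Rdh11 (1418760_at), an enzyme of the endoplasmic reticulum that reduces retinal to retinol, stood at 7.52 and 7.62 with KDM5A-H483A, at 7.13 and 6.91 with wild-type KDM5A, and at 7.66 and 7.66 with empty vector. Both wild-type KDM5A arrays were below all 4 other arrays. The KDM5A-H483A arrays were just below the empty vector arrays, by a mean of 0.10 (log2). KDM5A-H483A was above wild-type KDM5A by 0.54 (log2), or 1.46-fold. The second Rdh11 probe set (1449209_a_at) overlapped between all groups, at 5.77 and 5.89 with KDM5A-H483A, 5.63 and 5.78 with wild-type KDM5A, against 5.76 and 5.88 with empty vector. The annotation gives both probe sets the same transcript.

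Retsat (1424715_at), which saturates retinol to dihydroretinol, stood at 5.43 and 5.68 with KDM5A-H483A, at 5.004 and 4.94 with wild-type KDM5A, and at 4.78 and 4.68 with empty vector. The groups did not overlap, with KDM5A-H483A highest and empty vector lowest. KDM5A-H483A was above wild-type KDM5A by 0.58 (log2), or 1.496-fold, and wild-type KDM5A was above empty vector by 0.24, or 1.18-fold. The second Retsat probe set (1424716_at) again overlapped between groups, at 4.69 and 4.52 with KDM5A-H483A, 4.35 and 4.60 with wild-type KDM5A, against 4.45 and 4.64 with empty vector. The values of Rdh11 and Retsat are descriptions without a test, because these differences chose the genes. Groups whose arrays do not overlap were found for 28.2% of all genes for KDM5A-H483A against empty vector, 31.8% for wild-type KDM5A against empty vector and 31% for KDM5A-H483A against wild-type KDM5A. These shares compare groups in pairs, and no share was computed for patterns across all groups at once.

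Adipocytes express Retsat strongly. Of the 5 adipocyte markers measured, Fabp4 lay above the range of weak signal, at 6.17 and 6.57 with KDM5A-H483A, at 5.78 and 6.28 with wild-type KDM5A, and at 5.88 and 6.10 with empty vector. Both KDM5A-H483A arrays were above both empty vector arrays for Fabp4, by 0.38 on average, as they were for Retsat. Pparg, Lep, Adipoq and Cidec lay within that range, with differences between KDM5A-H483A and empty vector of 0.34, -0.16, 0.03 and -0.06, and the defining gene Adipoq stood between 3.01 and 3.24. The summed log2 level of the 5 markers was 20.4 and 21.8 with KDM5A-H483A, 19.9 and 21.7 with wild-type KDM5A, against 20.2 and 21.0 with empty vector. That sum was higher in the second array of each group, an order that Retsat had only with KDM5A-H483A. The part of these markers in the Retsat values was not tested. In RNA from whole cultures, fewer cells expressing a gene and less RNA per cell cannot be told apart.

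The promoters of Retsat and Rdh11 are shown because the group differences above concern these genes. The ARID domain of human KDM5A binds the DNA motif CCGCCC in vitro, and the same letters, read as GGGCGG on the other strand, are the GC box bound by the factor SP1. Each sequence is the 250 bases before the annotated start on the gene's strand, from RefSeq (GRCm38.p6), with matches on either strand in capitals. Retsat lies on the plus strand (chr6:72598352-72598601) and Rdh11 on the minus strand (chr12:79191856-79192105).
Retsat: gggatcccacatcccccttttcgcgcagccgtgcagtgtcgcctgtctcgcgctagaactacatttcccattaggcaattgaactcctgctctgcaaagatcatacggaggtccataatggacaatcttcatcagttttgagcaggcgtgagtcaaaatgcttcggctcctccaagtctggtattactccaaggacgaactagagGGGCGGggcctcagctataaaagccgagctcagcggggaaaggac
Rdh11: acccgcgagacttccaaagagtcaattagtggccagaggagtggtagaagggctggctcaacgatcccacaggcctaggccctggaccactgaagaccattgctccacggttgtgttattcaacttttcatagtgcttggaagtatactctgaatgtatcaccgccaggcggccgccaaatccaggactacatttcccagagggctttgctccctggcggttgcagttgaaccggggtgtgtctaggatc
Retsat held 1 match, which begins 45 bases before the start, and this Rdh11 promoter held 0. The promoter of a second Rdh11 start also held 0. Of 32851 promoters of the same length, 32.7% held the motif. The table gave 12 promoters for 7 of the 9 genes (Rdh10 and Crabp2 were not matched), and 5 of the 12, belonging to Retsat, Crabp1 and Stra6, held it. The Crabp1 promoter held 5 matches, against a mean of 0.656 over all promoters. A match is a run of letters and shows no binding.

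The genes that make retinoic acid gave weak signals, and neither passed the test. Aldh1a1 (1416468_at), which oxidizes retinal to retinoic acid, stood at 3.57 and 4.33 with KDM5A-H483A, at 3.36 and 3.92 with wild-type KDM5A, and at 3.21 and 3.49 with empty vector. Both KDM5A-H483A arrays were above both empty vector arrays, and the second array was the higher in all 3 groups. The log2 fold change of KDM5A-H483A was 0.60 against empty vector (SE 0.30, 95% CI -0.12 to 1.31, limma adjusted p = 0.999) and 0.31 against wild-type KDM5A (SE 0.30, 95% CI -0.41 to 1.02, limma adjusted p = 0.928). Against empty vector it was 0.22 with the second KDM5A-H483A array left out, and 0.98 with the first left out.

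Aldh1a7 lies next to Aldh1a1 in the RefSeq annotation of chromosome 19 and is a close relative of it. Whether its product oxidizes retinal was not tested. Aldh1a7 was chosen because, after its values were seen, it had the largest fold changes against empty vector among the other retinoid genes. It stood at 5.22 and 6.24 with KDM5A-H483A, at 5.03 and 6.37 with wild-type KDM5A, and at 4.48 and 4.89 with empty vector. All 4 KDM5A arrays were above both empty vector arrays, and again each second array was the higher. The Aldh1a7 mean of 5.37 lay below the median of all genes and within the range of weak signal. Its signal may therefore not lie above background. Relative to empty vector, the log2 fold change was 1.05 for KDM5A-H483A (95% CI -0.14 to 2.24, limma adjusted p = 0.999) and 1.02 for wild-type KDM5A (95% CI -0.18 to 2.21, limma adjusted p = 1). Probes for genes this similar can bind each other's transcripts, so the signals of Aldh1a1 and Aldh1a7 may not be fully separate. This was not tested. Aldh1a2 (1422789_at), the main retinoic acid enzyme of the early embryo, lay between 3.24 and 3.47 in all 6 arrays, and its log2 fold changes were 0.06 for KDM5A-H483A and -0.06 for wild-type KDM5A, each against empty vector, and 0.11 for KDM5A-H483A against wild-type KDM5A.

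Rarb encodes a retinoic acid receptor and is itself switched on by retinoic acid through a response element in its promoter, the classical example of such an element. The element is a DR5, a direct repeat of a receptor half-site. It was searched as a pair of half-sites with NNNNN between them, where a half-site could be AGGTCA, or the variant AGTTCA, or the variant GGGTCA, or the variant GGTTCA. The 250 bases before the Rarb start (chr14:16575477-16575726, minus strand, RefSeq, GRCm38.p6) are shown with the DR5 in capitals.
Rarb: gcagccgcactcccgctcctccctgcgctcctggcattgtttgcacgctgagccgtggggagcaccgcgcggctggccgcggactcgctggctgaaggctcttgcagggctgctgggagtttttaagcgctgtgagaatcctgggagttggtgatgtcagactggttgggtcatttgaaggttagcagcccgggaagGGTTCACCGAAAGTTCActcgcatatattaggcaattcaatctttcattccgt
The match ends 36 bases before the start, on the strand of the gene. Searched on both strands, a DR5 was found in 0.0883% of the 32851 promoters, and in 1 of the 12 promoters of the genes described here.

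Rarb (1454906_at) stood at 6.33 and 5.50 with KDM5A-H483A, at 6.65 and 5.66 with wild-type KDM5A, and at 6.40 and 6.43 with empty vector. Both KDM5A-H483A arrays were below both empty vector arrays, the first of them narrowly, and the wild-type KDM5A arrays lay 1 on either side. Relative to empty vector, the log2 fold change was -0.50 for KDM5A-H483A (SE 0.38, 95% CI -1.41 to 0.41, limma adjusted p = 0.999) and -0.26 for wild-type KDM5A (SE 0.38, 95% CI -1.17 to 0.65, limma adjusted p = 1). The KDM5A-H483A value was -0.087 with its second array left out, and -0.91 with its first left out.

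Of the 7 genes not picked for their differences, 0 passed limma's test in any comparison, with smallest unadjusted p-values of 0.0871 for KDM5A-H483A against empty vector (Aldh1a1), 0.0835 for wild-type KDM5A against empty vector (Crabp2) and 0.337 for KDM5A-H483A against wild-type KDM5A (Aldh1a1). Between KDM5A-H483A and empty vector, 3 of the 7 had arrays that did not overlap, or 42.9%, against 28.2% of all genes. Aldh1a1 and Crabp2 were the 2 that stood higher, as did 13.6% of all genes, and Rarb was the 1 that stood lower, as did 14.6%. Arrays overlapped for all 7 in each of the other comparisons. KDM5A-H483A differed from wild-type KDM5A by a log2 fold change of -0.03 for Stra6 (95% CI -0.40 to 0.33), 0.06 for Crabp1 (-0.72 to 0.83), -0.20 for Crabp2 (-0.997 to 0.59), -0.17 for Rdh10 (-1.08 to 0.74) and -0.24 for Rarb (-1.15 to 0.67), none past the threshold (limma adjusted p between 0.949 and 0.987). The median log2 fold change of the 7 was -0.02 for KDM5A-H483A against empty vector, against 0.00099 over all genes. The intervals leave room for changes of over 1 log2 unit in Crabp2, Aldh1a1, Rdh10 and Rarb. They were narrower for Stra6 and Aldh1a2, whose signals may not lie above background, so a narrow interval there bounds the signal and not a change of the gene.

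**Figure D2:**
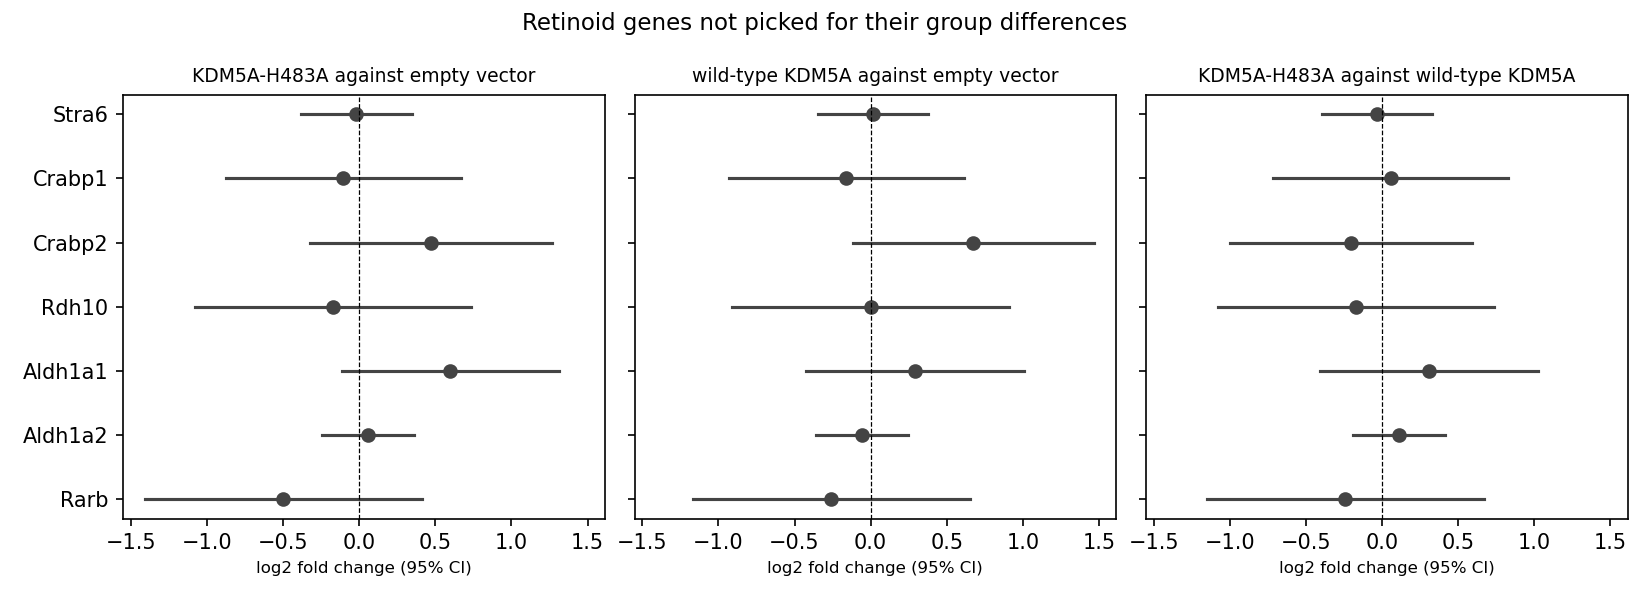
Log2 fold change (horizontal axis, with its 95% confidence interval from limma) of the 7 genes not picked for their differences, in the 3 comparisons. Every interval includes 0, and the widest belong to Rdh10 and Rarb, at 0.91 to either side.

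Several of the genes differed between the 2 arrays of a group. The arrays lay at least 0.5 (log2) apart for 3 of the 9 genes with KDM5A-H483A, 5 of 9 with wild-type KDM5A and 0 of 9 with empty vector, a threshold chosen after the values were seen. Of all genes, 14.9% lay as far apart with KDM5A-H483A, 11.2% with wild-type KDM5A and 3.79% with empty vector. Rdh10 and Rarb were higher in the first array by at least 0.5 in both KDM5A groups, as were 3.25% of all genes. For Rdh10 the difference of first minus second was 0.79 with KDM5A-H483A, 0.998 with wild-type KDM5A and 0.19 with empty vector. For Rarb it was 0.83, 0.99 and -0.03 in the same order of groups. Aldh1a1 ran the other way in both, at -0.76 and -0.56, as did 1.67% of all genes, and was -0.29 with empty vector. The arrays of a group lay at most 0.25 apart for Rdh11 and Retsat, whose choice for group differences favours small differences between replicates.

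Fibroblast markers differed between the same arrays. The summed log2 level of the 10 markers was 105.9 and 99.0 with KDM5A-H483A, 107.7 and 98.4 with wild-type KDM5A, against 105.0 and 102.9 with empty vector, in the order of replicates. Like Rdh10 and Rarb, the sum was lower in the second array of both KDM5A groups. With KDM5A-H483A, 7 of the 10 markers were lower in the second array, among them Col3a1 (12.90 and 10.24), Lum (5.52 and 3.92) and Col1a1 (12.39 and 11.05), while Vim (13.00 and 13.39), S100a4 (11.52 and 12.10) and Thy1 (7.31 and 7.83) were higher there. All 10 were lower in the second array with wild-type KDM5A, and 8 of 10 with empty vector. Its part in the differences was not tested.

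**Figure D3:**
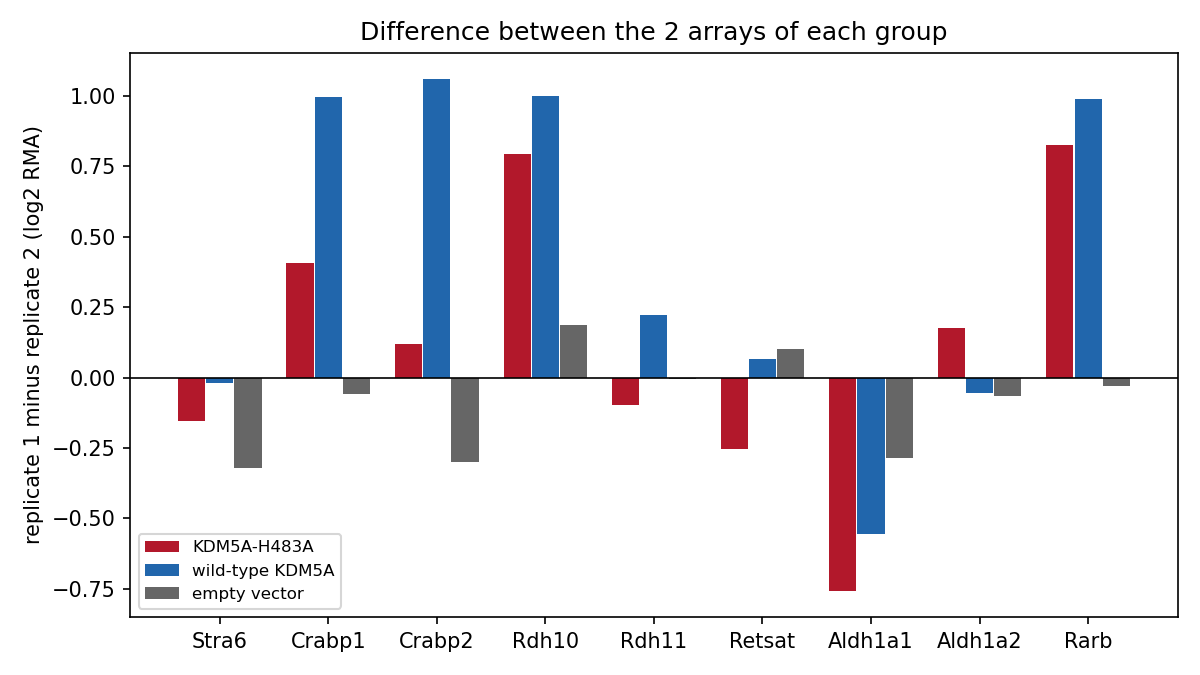
Replicate 1 minus replicate 2 (log2 RMA, vertical axis) of each gene with KDM5A-H483A, wild-type KDM5A and empty vector, shown as bars from 0. Rdh10, Rarb, Crabp1 and Crabp2 are positive in both KDM5A groups, Crabp2 by 0.12 with KDM5A-H483A and 1.06 with wild-type KDM5A. Aldh1a1 and, by less, Stra6 are negative in both, while no empty vector difference reaches 0.5 in size.

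For 6 of the genes, the 3 genes of most similar pattern were found among 8859 genes of at least median level. The measure was the root mean square difference over the 6 arrays, after each gene was centred on its mean. This search selects for shared patterns, so the likeness of the genes found is built in and is no separate result. For Rdh11 these were Hspa14, an Hsp70 family gene (0.09), Irf3, an interferon regulatory factor (0.09), and Ccdc124 (0.13). Irf3 stood at 5.66 and 5.83 with KDM5A-H483A, at 5.28 and 5.10 with wild-type KDM5A, and at 5.59 and 5.77 with empty vector, with both wild-type KDM5A arrays lowest. For Retsat they were Manba, a lysosomal mannosidase (0.09), Fth1, the ferritin heavy chain (0.14), and S100a13 (0.14). Manba stood at 6.13 and 6.42 with KDM5A-H483A, at 5.90 and 5.92 with wild-type KDM5A, and at 5.57 and 5.54 with empty vector, in the same order of groups as Retsat.

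The other 4 genes were taken because each spanned at least 1 log2 unit. For Rdh10 the nearest were Fam114a1 (0.04), Mfap5, a microfibril protein (0.04), and Trib3, a pseudokinase of the stress response (0.05). Fam114a1 stood at 8.76 and 8.07 with KDM5A-H483A, at 9.05 and 8.11 with wild-type KDM5A, and at 8.66 and 8.44 with empty vector, so the first array was the higher in each group, as for Rdh10. For Rarb they were Mapk8ip3, Denn2b and Lox, the enzyme that cross-links collagen, at 0.07, 0.07 and 0.10. For Crabp2 they were Ephx1, an epoxide hydrolase (0.08), Pgpep1 (0.13) and S100a16 (0.15). For Aldh1a1 they were Wbp2 (0.06), Dpysl3 (0.07) and Sat1, which acetylates polyamines (0.07).

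Of 60 other retinoid genes listed by role, 55 were measured and 0 were called in either direction in any comparison. Log2 fold changes above 0 were found for 27 of the 55 (49.1%) for KDM5A-H483A against empty vector, 13 (23.6%) for wild-type KDM5A against empty vector and 33 (60%) for KDM5A-H483A against wild-type KDM5A, where 50.2%, 51.3% and 48.4% of all genes were above 0. The 15 genes restricted to other tissues also departed from the shares of all genes, with 10 (66.7%), 4 (26.7%) and 13 (86.7%) above 0 in the same order of comparisons. Among the 23 other retinoid genes of at least median level the counts were 16 (69.6%), 9 (39.1%) and 14 (60.9%), and among the 32 dimmer ones 11 (34.4%), 4 (12.5%) and 19 (59.4%). The part of weak signal in these shares was not tested. The medians were -0.01, -0.07 and 0.03, against 0.00099, 0.0049 and -0.0069 over all genes. Arrays did not overlap for 17 (30.9%), 10 (18.2%) and 15 (27.3%) of them, near or below the 28.2%, 31.8% and 31% of all genes.

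By role and in the same order of comparisons, 1, 0 and 4 of 8 carriers were above 0, and 9, 3 and 9 of 15 retinol and retinal oxidoreductases. The counts were 3, 1 and 4 of 6 for retinyl ester and carotenoid genes. They were 2, 0 and 2 of 2 for the retinoic acid hydroxylases Cyp26a1 and Cyp26b1. Nuclear receptors gave 5, 3 and 3 of 6, and retinoic acid target genes 6, 5 and 8 of 15. The aldehyde dehydrogenases Aldh1a3, Aldh8a1 and Aldh1a7, listed as retinal dehydrogenases, gave 1, 1 and 3 of 3. Of these, Aldh1a7 alone was above 0 against empty vector, and whether it acts on retinal was not tested. The arrays of 5 of the 8 carriers (62.5%) did not overlap between KDM5A-H483A and empty vector, all 5 with means under the median of all genes. Rbp7 was the higher one, by 0.17, and Rbp2, Rbp3, Stra6l and Rlbp1 were lower, by at most 0.15, names chosen after their values were seen. The 2 highest genes of at least median level were the oxidoreductases Dhrs4 and Rdh14 for KDM5A-H483A against both other groups. Against empty vector the arrays of both genes overlapped, with differences of 0.45 for Dhrs4 and 0.46 for Rdh14. There the other probe sets gave 0.08 for Dhrs4, and -0.31 and 0.15 for Rdh14. Dhrs4, which interconverts retinol and retinal, stood at 6.08 and 6.78 with KDM5A-H483A, at 5.97 and 5.34 with wild-type KDM5A, and at 6.16 and 5.80 with empty vector. Both KDM5A-H483A arrays were above both wild-type KDM5A arrays, by 0.78 on average (95% CI 0.05 to 1.51, limma adjusted p = 0.928), and its second probe set overlapped, with a difference of 0.20.

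Rdh14, a relative of Rdh11 that also reduces retinal, stood at 6.20 and 6.73 with KDM5A-H483A, at 5.92 and 5.69 with wild-type KDM5A, and at 6.21 and 5.79 with empty vector. KDM5A-H483A was above wild-type KDM5A by 0.66 (95% CI 0.10 to 1.21, limma adjusted p = 0.928), and 2 dimmer probe sets gave -0.15 and 0.32. Neither Dhrs4 nor Rdh14 passed the threshold. Both were named for the size of their differences, and their intervals are not adjusted for that choice, so the intervals are no support for a change. The other genes of at least median level with the largest differences, none of them past the threshold, were Rarres1 (-0.38) and the retinol carrier Rbp4 (-0.32) for KDM5A-H483A against empty vector, and Bhlhe40 (-0.34) and the homeobox gene Meis2 (-0.23) for KDM5A-H483A against wild-type KDM5A. The other 3 Meis2 probe sets gave 0.03, -0.26 and -0.20. For wild-type KDM5A against empty vector they were Rbp4 (-0.36), Dhrs4 (-0.33), the receptor gene Rarg (0.35) and the transglutaminase gene Tgm2 (0.30). The second Rarg probe set gave -0.12 there, and the other 5 Tgm2 probe sets gave values from -0.27 to 0.29. Rbp4 and Rarres1 were, like Rdh10, lower in each second array, at 7.30 and 6.29 for Rbp4 with KDM5A-H483A, 7.38 and 6.12 with wild-type KDM5A, against 7.43 and 6.79 with empty vector.

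**Figure D4:**
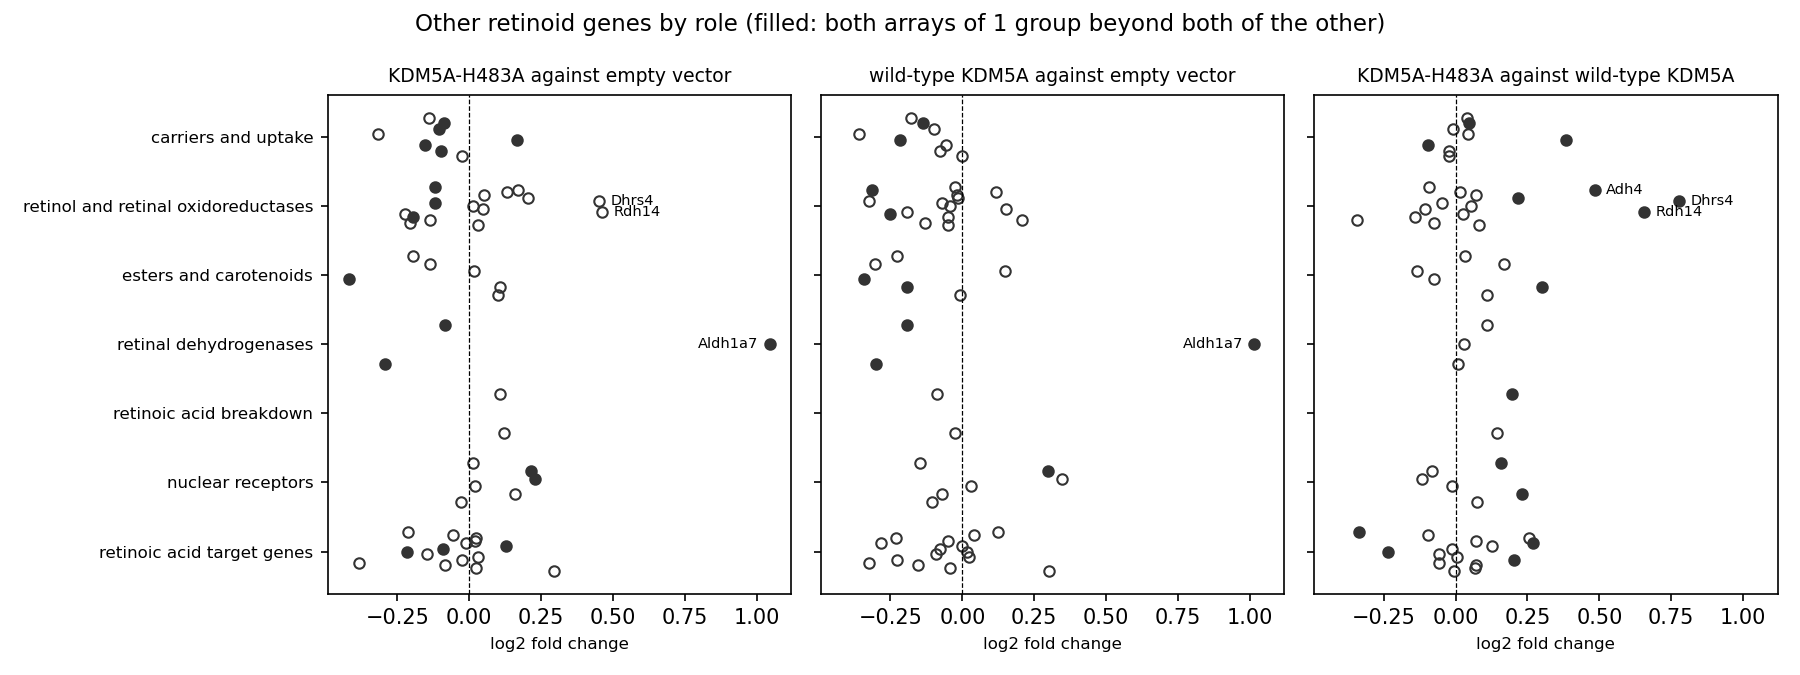
Log2 fold change (horizontal axis) of 55 other retinoid genes, grouped by role (vertical axis), in the 3 comparisons. Each point is a gene, filled where both arrays of 1 group lie beyond both of the other. Aldh1a7 lies near 1 against empty vector in both KDM5A groups, and Dhrs4 and Rdh14 are the highest for KDM5A-H483A against wild-type KDM5A.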

How the data were processed

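Each group was measured on 2 Affymetrix M430 2.0 arrays. The authors deposited a single table of log2 values, and the submitters' processing notes name RMA, without its version or probe annotation. RMA gives all arrays 1 distribution, so changes of total RNA per cell are not visible, and it compresses differences of weak signals. Array medians were 4.55 to 4.60, and values were used unscaled. The number of arrays limits the precision.

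Of 45101 probe sets, the platform annotation paired 34958 with 1 gene symbol, 932 with several and 9211 with none listed. Symbols were updated through Entrez IDs (34754 matched). The brightest probe set not ending in _x_at, where there was one, stood for each of 18194 genes. Limma 3.58.1 (R 4.3.3) was fitted to all 6 arrays (3 residual and 3.42 prior degrees of freedom), with two-sided p-values, Benjamini-Hochberg adjustment across the 18194 genes and a threshold of 0.05. Rdh11, Retsat and probe sets that did not stand for a gene are given without a test. The procedure was tested on simulated data.

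The members and gene lists were chosen with earlier results of these data known. The text names all members, the 2 highest and 2 lowest other retinoid genes of at least median level per comparison, and the 3 genes most like Rdh11, Retsat and each member spanning at least 1 log2 unit, passing over clone and predicted-gene symbols. Listed genes without a probe set of their own in the table were not analysed here. Alternatives covered the probe set rule, a filter on dim genes, centring, renormalization, the variance prior, the arrays fitted, a replicate block and leaving out each array.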

Additional observations from a re-analysis of the deposited data

How the results depend on the processing

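Limma called 0 genes in each of the 3 comparisons under all 14 alternatives. Of 366 member values recomputed, 345 kept their direction and 21 changed sign, 19 of these with 1 array left out. Many of the 345 could not change. The block, the variance prior, the filter on dim genes, the fit of all probe sets and the fit of only the compared groups leave a log2 fold change as it was. Leaving out an array likewise leaves the comparison without its group as it was. The 345 is therefore no measure of stability. Moves beyond the replicate SD were counted for Rdh11 and Retsat only, and leaving out 1 of 2 arrays cannot give one. There were 5, all with the probe sets of a gene averaged. Rdh11 gave -0.38 and Retsat 0.08 for wild-type KDM5A against empty vector. Rdh11 gave 0.34 and Retsat 0.36 for KDM5A-H483A against wild-type KDM5A. Retsat gave 0.44 for KDM5A-H483A against empty vector. Averaging brings in their second probe sets, which overlapped between groups. With genes below the median left out, Stra6, Retsat, Aldh1a1 and Aldh1a2 gave no value. Rdh10 in wild-type KDM5A against empty vector, at -0.000082, turned to 0.024 with probe sets averaged, which brings in its second probe set at 0.049. It turned to 0.012 with arrays centred on their medians, which moves all genes of a comparison by the same amount.

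With 1 array left out at a time, the lone array of a group is assumed to vary like the others. For KDM5A-H483A against empty vector the log2 fold change ranged from -0.028 to 0.15 for Aldh1a2, from -0.31 to 0.10 for Crabp1, from -0.57 to 0.23 for Rdh10 and from -0.18 to 0.14 for Stra6. The sign changed without the first KDM5A-H483A array for Aldh1a2 and Stra6, without its second for Crabp1 and Rdh10, and without the second empty vector array for Stra6. For wild-type KDM5A against empty vector it ranged from -0.66 to 0.34 for Crabp1, from -0.75 to 0.24 for Rarb, from -0.50 to 0.50 for Rdh10 and from -0.15 to 0.18 for Stra6. The sign changed without the second wild-type KDM5A array for Crabp1, Rarb and Rdh10, and without the first empty vector array for Rdh10 and Stra6. For KDM5A-H483A against wild-type KDM5A it ranged from -0.072 to 0.69 for Aldh1a1, from -0.44 to 0.55 for Crabp1, from -0.73 to 0.33 for Crabp2, from -0.74 to 0.25 for Rarb, from -0.67 to 0.33 for Rdh10 and from -0.11 to 0.041 for Stra6. The sign changed without the first KDM5A-H483A array for Crabp1 and Stra6, without its second for Aldh1a1, Rarb and Rdh10, without the first wild-type KDM5A array for Crabp2, Rarb and Rdh10, and without its second for Crabp1. Rdh11 ranged from -0.75 to -0.53 for wild-type KDM5A against empty vector and Retsat from 0.70 to 0.95 for KDM5A-H483A against empty vector.

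The labels give the groups the same replicate numbers without saying that a number marks a shared culture or day. The differences of first minus second array correlated across genes, which are not independent, at 0.53 between KDM5A-H483A and wild-type KDM5A, 0.016 between KDM5A-H483A and empty vector, and for wild-type KDM5A and empty vector at 0.31. With the replicate number as a block, limma called 0 genes in each comparison, with smallest adjusted p-values of 0.996 for KDM5A-H483A and 0.998 for wild-type KDM5A, each against empty vector, and 0.795 for KDM5A-H483A against wild-type KDM5A. The block changed no call.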
